A study of Mus musculus with 92 samples.

Results

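The genes described here are 9 members of the bone morphogenetic protein (BMP) pathway: the ligands Bmp2 and Bmp4, the receptors Bmpr1a and Bmpr2, the inhibitory Smads Smad6 and Smad7, and the target genes Id1, Id2 and Id3. They were selected by gene name from a fixed list of symbols, and all 9 were found among the 54532 genes of 4 count tables. The tables hold 92 polyadenylated RNA libraries in 21 groups, made from mouse small intestine and from cultures grown from it. Eif4g2 encodes a relative of the scaffold eIF4G that takes part in translation initiation, and the study deleted it with tamoxifen-activated Cre recombinase, so that every genotype named below carries a CreER transgene.

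Tissue came from 2 kinds of mouse. In Rosa26-CreER mice, where Cre can act in every cell that tamoxifen reaches, crypts and villi were taken on day 9 after tamoxifen was begun, from animals with homozygous deletion (4 crypt and 5 villus libraries) or heterozygous deletion (5 and 5). In Vil1-CreER mice, where Cre is driven by an intestinal epithelial promoter, crypts and villi were taken at month 3, with 3 and 6 homozygous and 4 and 4 heterozygous libraries. The tissue controls therefore also received tamoxifen and lost 1 Eif4g2 copy. Organoids are epithelial cultures kept in ENR medium, which contains EGF, Noggin and R-spondin. The first organoid set holds 3 flox/flox lines on day 6 with 4-hydroxytamoxifen (4-OHT, the active form of tamoxifen) or DMSO, and the second holds 4 flox/flox, 4 flox/+ and 4 CreER-only cultures that all received 4-OHT. Fetal spheroids, cultures of fetal epithelium, comprise 6 flox/flox and 5 flox/+ lines, each with 4-OHT and with DMSO, collected on day 6. The names of these 11 lines share 4 numbers, so that some lines may have a common origin. In a separate experiment 4 organoid lines received DMSO or A-485, which blocks the acetyltransferase activity of p300 and CBP on histones, at 3, 5 or 10 µM for 4 days. None of these 4 lines had been deleted, line 1 being Eif4g2 +/+ and the others flox/flox. By the library names, line 2 of this experiment is line 1 of the first organoid set, so the experiments share a line. Line numbers are counted separately in each experiment and genotype.

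BMP ligands bind a complex of type I and type II receptor kinases, of which Bmpr1a is a type I and Bmpr2 a type II receptor. The type I receptor phosphorylates Smad1, Smad5 and Smad9, which enter the nucleus with Smad4 and switch on target genes. The Id genes are the classic direct targets, and their products bind E proteins and keep those basic helix-loop-helix factors from DNA. Smad6 and Smad7 are also induced by the pathway and shut it off at the receptors. In the small intestine BMP activity is high in the villus and low at the crypt base, where stromal antagonists hold it back, and Noggin in the medium stands in for those antagonists in organoids.

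Promoter sequence is shown because Smad complexes can bind GC-rich elements such as GGCGCC and GGAGCC in targets of this pathway. RefSeq promoter windows of build GRCm38.p6 were matched for 6 of the 9 genes. For 4 of them the bases before the start site that lie outside annotated exons follow, 5′ to 3′ on the gene's strand, with each GGCGCC or GGAGCC in capitals (both strands were searched, and GGCTCC is GGAGCC read on the other strand). For Bmpr1a and Id2 the stretch lies within the annotated gene but outside its exons, and for Smad6 and Bmp4 it lies directly before the gene.
Bmpr1a, chr14:34502688-34502796, minus strand: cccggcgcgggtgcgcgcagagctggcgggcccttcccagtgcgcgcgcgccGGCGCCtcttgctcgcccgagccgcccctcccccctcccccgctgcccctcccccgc
Id2, chr12:25096254-25096342, minus strand: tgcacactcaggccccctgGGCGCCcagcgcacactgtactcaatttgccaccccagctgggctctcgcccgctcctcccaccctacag
Smad6, chr9:64022060-64022309, minus strand: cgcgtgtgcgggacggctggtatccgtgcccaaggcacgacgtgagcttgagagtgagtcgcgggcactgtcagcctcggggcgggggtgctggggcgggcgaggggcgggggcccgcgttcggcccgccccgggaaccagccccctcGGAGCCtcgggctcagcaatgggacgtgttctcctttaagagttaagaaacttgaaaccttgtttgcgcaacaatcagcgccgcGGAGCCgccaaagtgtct
Bmp4, chr14:46390670-46390919, minus strand: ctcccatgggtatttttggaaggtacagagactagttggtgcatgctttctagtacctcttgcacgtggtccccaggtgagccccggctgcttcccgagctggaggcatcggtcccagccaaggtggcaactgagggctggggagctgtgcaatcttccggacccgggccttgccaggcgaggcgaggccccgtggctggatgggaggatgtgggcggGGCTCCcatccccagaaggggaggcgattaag
Bmpr1a and Id2 held 1 GGCGCC each, Smad6 held 2 GGAGCC and Bmp4 held 1 GGAGCC. Among 32851 RefSeq windows, 9.59% held a GGCGCC and 26% a GGAGCC within 250 bases, 3.41% and 11% within the 109 bases used for Bmpr1a, and 2.73% and 8.92% within the 89 bases used for Id2. A match describes the letters only.

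Libraries held 8652040 to 37611126 counts. Levels are given as CPM, counts scaled to the library total after TMM normalisation, and differences as log2 fold changes with their standard error (SE) and the Benjamini-Hochberg adjusted p of edgeR's quasi-likelihood test over all genes tested. Calls were made below 0.05. Eif4g2 itself was lower in each homozygous or 4-OHT flox/flox group: 85.7 against 350 CPM in Rosa26-CreER crypts, 54.6 against 343 in villi, 237 against 470 in Vil1-CreER crypts, 152 against 390 in villi, 141 against 729 in the first organoid set and 128 against 906 in flox/flox spheroids. In the second organoid set it stood at 228 CPM in flox/flox, 754 in flox/+ and 1220 in CreER-only cultures, and in flox/+ spheroids at 527 CPM with 4-OHT and 925 with DMSO. The tissue libraries are fractions and not sorted cells: the summed CPM of 9 immune markers was 779 to 6940 in heterozygous Rosa26-CreER tissue and at most 2.29 in both organoid sets and the spheroids. Villus libraries carried the enterocyte markers at 33400 CPM or more, against 7930 or less in any crypt library. In spheroids with DMSO these markers summed to 907 to 9240 CPM in flox/flox and 145 to 5990 CPM in flox/+ lines. Flox/+ organoids of the second set held 4010 to 8180 CPM. The summed CPM of 8 crypt markers was 1490 to 6330 in homozygous and 13700 to 18500 in heterozygous Rosa26-CreER crypts, and 989 to 1710 against 7720 to 10300 in Vil1-CreER crypts, and what part this has in the crypt values below was not tested. In tissue and in cultures, a change in the number of cells of a type and a change of RNA per cell cannot be told apart. Crypt markers summed to 686 to 939 CPM with 4-OHT and 2360 to 2790 CPM with DMSO in the first organoid set. In the second set the sums were 2690 to 3840 CPM in flox/flox and 8530 to 10000 CPM in flox/+ cultures. Enterocyte markers in flox/flox spheroids summed to 45.5 to 7110 CPM with 4-OHT and 907 to 9240 CPM with DMSO. What part these have in the culture values below was not tested.

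**Figure D1:**
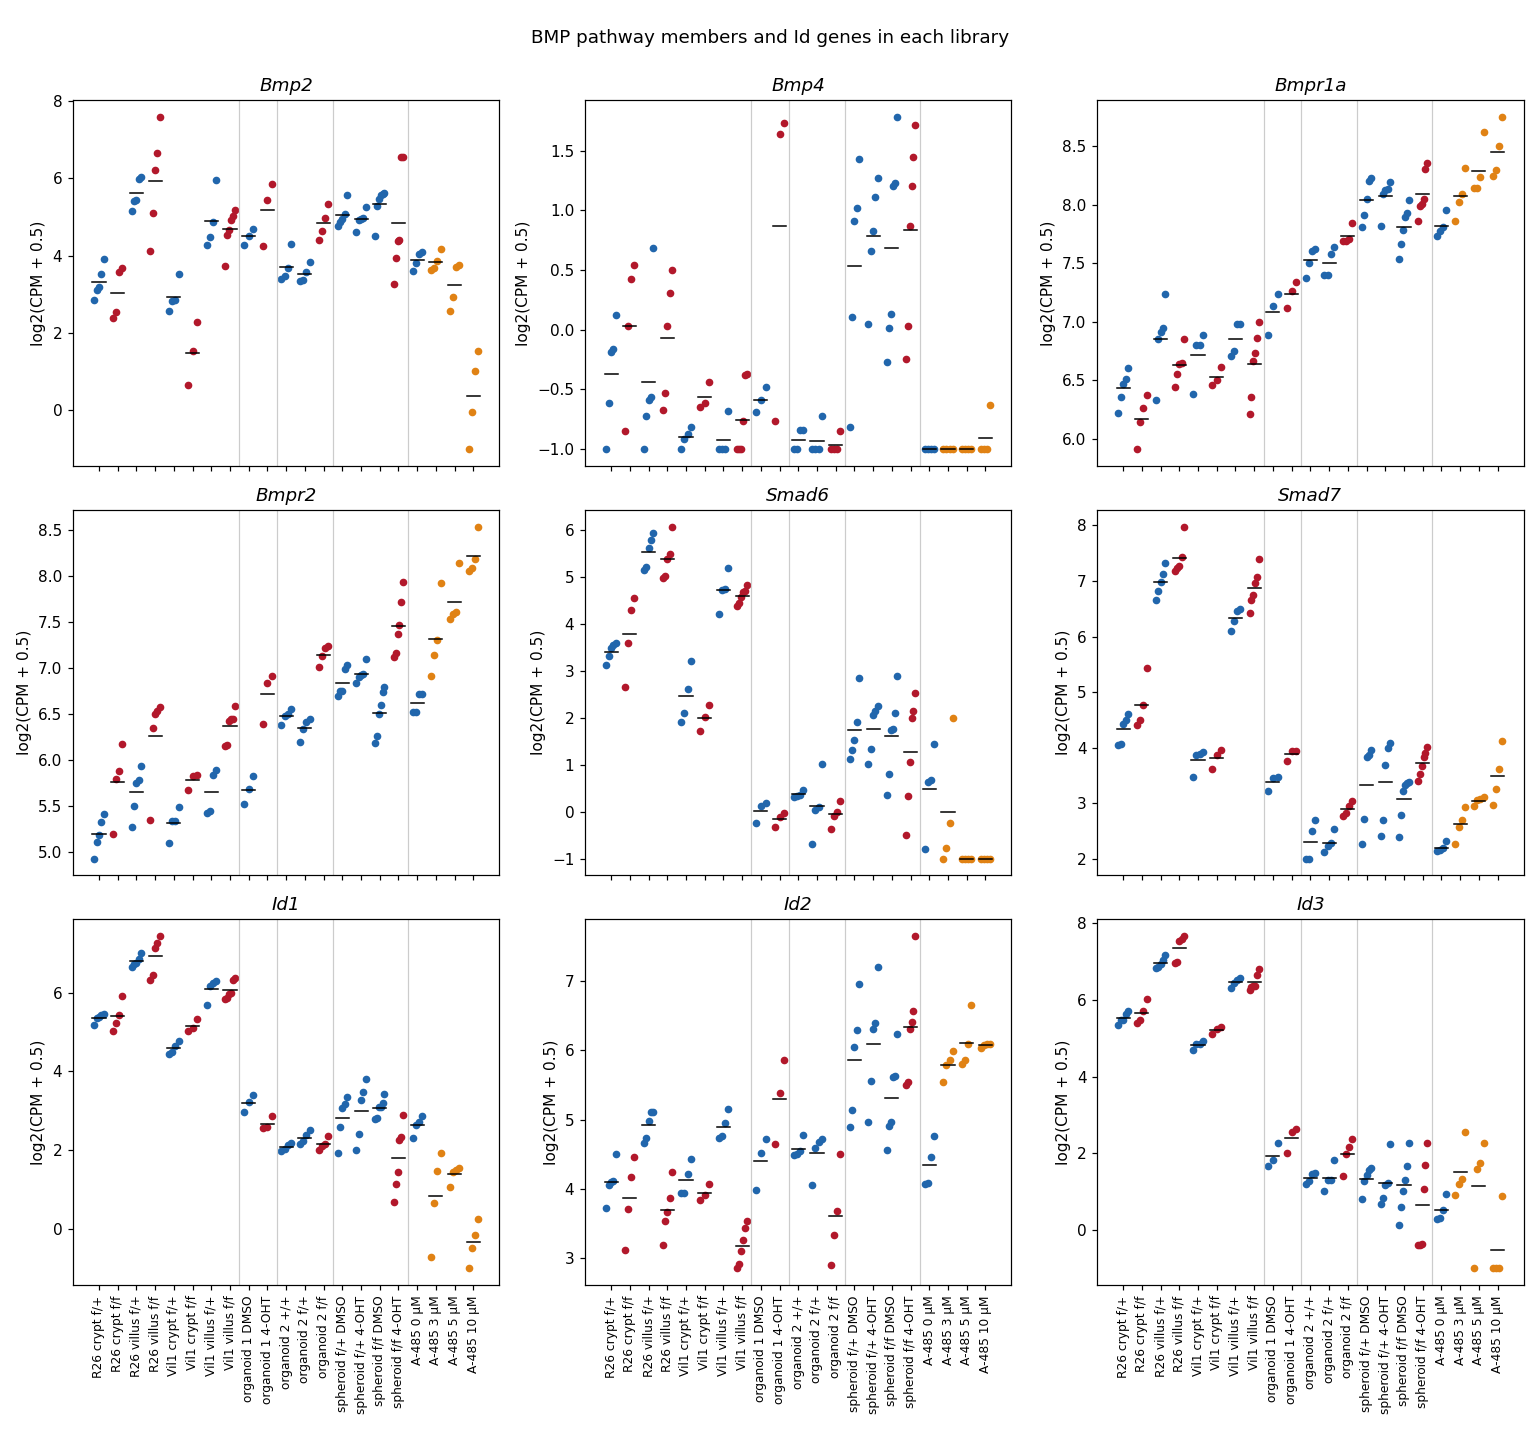
Levels of the 9 genes in all 92 libraries, as log2(CPM + 0.5) on the vertical axis of each panel, by group along the horizontal axis. Blue points are heterozygous, undeleted or vehicle controls, red points homozygous or 4-OHT flox/flox samples, orange points A-485, and black lines are group means. Id1, Id3, Smad6 and Smad7 sit highest in villi and low in all cultures, and Bmp4 is near 0 throughout.

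Among controls, most of these genes were more abundant in villi than in crypts. In heterozygous Rosa26-CreER mice all 8 tested genes were lower in crypts than in villi, where 36.4% of all tested genes were called lower in crypts and 77.1% were called in either direction. In heterozygous Vil1-CreER mice 6 of 8 were lower in crypts and none was higher, where 32.7% of all tested genes were called lower and 67.9% in either direction. The median log2 difference of the tested members was -1.45 and -1.54, against 0.09 and 0.08 over all tested genes. Bmp4 did not pass the filter on low counts in either comparison.

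Bmp2 encodes a ligand that villus epithelium itself makes. Its level was 6.73 to 14.7 CPM in the 5 Rosa26-CreER heterozygous crypt libraries and 35.2, 42.6, 43.1, 63.3 and 65.3 CPM in the villi of the same animals. The groups did not overlap, and the log2 difference of crypts minus villi was -2.35 (SE 0.23, adjusted p = 1.71e-06). In Vil1-CreER heterozygotes Bmp2 measured 5.42, 6.58, 6.75 and 11.1 CPM in crypts and 18.8, 22.1, 28.7 and 61.4 CPM in villi, a log2 difference of -2.08 (adjusted p = 0.00175).

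Smad7 differed most of the 8. It measured 16 to 24 CPM in Rosa26-CreER heterozygous crypts and 101 to 159 CPM in villi, a log2 difference of -2.69 (adjusted p = 8.36e-09), and 10.6 to 14.6 against 68.4 to 89.9 CPM in Vil1-CreER mice, a log2 difference of -2.53 (adjusted p = 2.08e-07). Smad6, the other inhibitory Smad, was lower in crypts by similar amounts, with log2 differences of -2.21 (adjusted p = 9.77e-08) and -2.26 (adjusted p = 0.000189). Id1 and Id3 were each lower in the crypt of every animal, 5 of 5 and 4 of 4. Their log2 differences were -1.45 and -1.45 in Rosa26-CreER and -1.49 and -1.59 in Vil1-CreER mice. Id2 differed less, with -0.84 (adjusted p = 0.000197) and -0.72 (adjusted p = 0.00152). The receptors differed least: Bmpr1a by -0.45 (adjusted p = 0.0103) and Bmpr2 by -0.47 (adjusted p = 0.00552) in Rosa26-CreER mice, and Bmpr2 by -0.30 (adjusted p = 0.0624) in Vil1-CreER mice, where neither receptor was called. Immune markers moved with the same contrast, with a median sum of 4700 CPM in Rosa26-CreER heterozygous villi and 1490 in crypts, and their part in these differences was not tested.

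Compared per kilobase of transcript (RPKM), Id1 and Id3 were the most abundant members in heterozygous villi, at means of 95.6 and 69.8 in Rosa26-CreER mice. In cultures the order was another one. Bmpr1a led every organoid, spheroid and A-485 group, at means from 21.4 to 55.5 RPKM, while Id1 had at most 7.56 and Id3 at most 2.72. These levels come from tables normalised separately and are set side by side without a test. Bmp4 reached a mean of at most 0.82 RPKM in any group.

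Bmp2 with deletion moved in different directions between settings. In Vil1-CreER crypts it was lower with homozygous deletion, at 1.07, 2.43 and 4.37 CPM against 5.42, 6.58, 6.75 and 11.1 in heterozygotes. The groups did not overlap, and the log2 fold change was -1.50 (SE 0.47, adjusted p = 0.0461). The call was lost when any 1 of 6 of the 7 libraries was left out and with no filter on low counts (adjusted p = 0.099). Enterocyte markers were also lower in these crypts, at 790 to 1960 CPM in all against 1560 to 3330 in heterozygotes, and their part in the Bmp2 difference was not tested. 4 of the 8 tested members were called there, 3 higher and 1 lower, with 29.3% of all tested genes called. In the second organoid set Bmp2 rose with deletion. It measured 20.7, 24.6, 39.7 and 30.8 CPM in flox/flox cultures, 11.5, 13.7, 9.64 and 9.85 CPM in flox/+ and 10.6, 10.1, 19.3 and 12.3 CPM in CreER-only cultures. Every flox/flox culture lay above every control culture, with a log2 fold change of 1.37 against flox/+ (SE 0.24, adjusted p = 0.000647) and 1.14 against CreER-only (adjusted p = 0.00214); both comparisons use the same 4 flox/flox libraries.

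In the first organoid set Bmp2 measured 43.2, 57.9 and 18.5 CPM with 4-OHT and 22.5, 25.6 and 18.8 CPM with DMSO in the same lines. Lines 1 and 2 were higher with 4-OHT and line 3 was level. The log2 fold change of 0.83 was not called (adjusted p = 0.123), and with the line as a block it was 0.71 (adjusted p = 0.0438). Without the 4-OHT library of line 3 it was 1.17 (adjusted p = 0.0022), and without that of line 2 it was 0.44 (adjusted p = 0.388). In flox/flox spheroids the lines split. Bmp2 went from 48.6 to 94.3 and from 48.3 to 94.4 CPM in both lines whose names share one number, and the other 4 lines went from 38.8, 43.6, 46.9 and 22.3 to 20.5, 20.7, 15 and 9.12 CPM. No mean change was called. In homozygous Rosa26-CreER villi it spread from 16.8 to 192 CPM, against 35.2 to 65.3 in heterozygotes, and was not called (adjusted p = 0.371).

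Bmp4, a ligand made mainly by stromal cells in the intestine, was at or near the limit of detection. It had 0 reads in every DMSO, 3 µM and 5 µM A-485 library and at most 1.11 CPM in any tissue library. In the first organoid set 2 of 3 lines read 2.62 and 2.82 CPM with 4-OHT against 0.121 and 0.164 CPM with DMSO, and line 3 read 0.09 and 0.216, and the gene did not pass the filter there and was not tested. Spheroids carried more: the flox/+ spheroids with 4-OHT had 1.27, 1.66, 1.92, 0.533 and 1.08 CPM, while 3 of the 4 flox/+ organoid cultures were at 0 and the other at 0.105. Those groups held 132 and 2 reads in all, a ratio of 44.9 per total count with an exact 95% interval of 12.2 to 375 that covers counting error only (adjusted p = 0.000804 in the fit across genes). Stromal markers moved with that contrast. Their summed CPM over 11 genes was 4.48 to 183 in these spheroids and 0.628 to 2.21 in the organoids, where Col1a2, Col3a1, Dcn, Lum and Des were at 0. Their part in the Bmp4 difference was not tested. The gene also overlaps antisense transcripts Gm15217 and Gm15222, and the strand setting of the counting is not given in the sources used here.

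Of all 9 genes, Bmpr2, the type II receptor, was called higher in the most comparisons. It was the only member called with the same sign in all 4 tissue comparisons of homozygous with heterozygous deletion, in both organoid sets, in flox/flox spheroids and at each A-485 dose. In Vil1-CreER villi it measured 70.4, 85.2, 71.3, 95.7, 86.7 and 86.4 CPM in homozygotes (lowest to highest 70.4 to 95.7) and 58.9, 42.5, 43.2 and 56.8 CPM in heterozygotes. The groups did not overlap, with a log2 fold change of 0.70 (SE 0.13, adjusted p = 0.000864). The sum of 11 stromal markers was also higher in these homozygous villi, at 19.6 to 34.8 CPM against 2.51 to 6.74, with Lum at 0 in the heterozygotes and Pdgfrb the largest part (16.5 against 2.08 CPM), and its part in the Bmpr2 and Smad7 differences there was not tested. 3 of 8 members were called in this comparison, 2 higher and 1 lower, with 42.5% of all tested genes called. In Vil1-CreER crypts Bmpr2 measured 56.9, 50.7 and 56.2 CPM against 40, 33.8, 44.5 and 39.9 CPM, again without overlap, a log2 fold change of 0.47 (SE 0.10, adjusted p = 0.00974).

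In Rosa26-CreER tissue the same direction was less firmly measured. Crypt libraries held 58.4, 36.2, 71.5 and 55 CPM of Bmpr2 in homozygotes and 42.2, 39.8, 36, 30 and 34.1 CPM in heterozygotes. The homozygous library of replicate 3 lay within the control range. The log2 fold change was 0.66 (SE 0.18, adjusted p = 0.0304), and it was the single member called of 9, with 20.2% of all tested genes called. It lost the call without any 1 of 6 of the 9 libraries, and with a term for Y-linked transcripts (adjusted p = 0.107), which most homozygous libraries lack. The mitochondrial share of counts also differed there, at 18.9% ± 5.04 (SD, n = 4) in homozygous and 8.56% ± 2.51 (SD, n = 5) in heterozygous crypts (exact two-sided permutation p = 0.00794, 0.0317 adjusted over 4 comparisons), and its part was not tested. Stromal markers summed to 38.3 to 2020 CPM in homozygous and 24.4 to 840 CPM in heterozygous crypts, and enterocyte markers to 2660 to 7930 and 1990 to 3490 CPM. Their part in the Bmpr2, Smad6 and Smad7 values of these crypts was not tested. In villi Bmpr2 measured 40.4, 92.4, 90.2, 95.1 and 80.8 CPM against 38.2, 53.5, 44.7, 54.6 and 60.7 CPM. 4 of 5 homozygous libraries were above every heterozygous one. The log2 fold change was 0.61 (SE 0.21, adjusted p = 0.044), and the call was lost without any 1 of 8 of the 10 libraries, with no filter on low counts (adjusted p = 0.0604) and with the Y-linked term (log2 fold change 0.34, adjusted p = 0.375). The sum of 7 endothelial markers was 6.58 to 20.5 CPM in the homozygous and 1.92 to 10.7 CPM in the heterozygous villi, and its part was not tested. 2 of 8 members were called in these villi, 1 higher and 1 lower, with 33.2% of all tested genes called.

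The cultures gave the clearest Bmpr2 values. In the first organoid set it measured 114, 120 and 83.7 CPM with 4-OHT and 50.8, 56.2 and 45.5 CPM with DMSO, higher in 3 of 3 lines. The log2 fold change was 1.05 (SE 0.15, adjusted p = 0.00221). 3 of 8 members were called, 2 higher and 1 lower, with 35.4% of all tested genes called. With the line as a block 6 members were called, while the number of genes called stayed within a factor of 1.5. In the second set Bmpr2 measured 148, 150, 139 and 128 CPM in flox/flox, 86.4, 84.4, 72.9 and 80.6 CPM in flox/+ and 88.7, 82.7, 93.8 and 90.2 CPM in CreER-only cultures. Its log2 fold changes were 0.79 (SE 0.07, adjusted p = 5.00e-07) and 0.67 (adjusted p = 2.57e-06). 6 of 8 members were called in each of those comparisons, 5 higher and 1 lower, with 46.8% and 45.3% of all tested genes called. Flox/+ against CreER-only cultures gave 0 members called with edgeR, 0 at an unadjusted p under 0.05 among the members and 0 with DESeq2, where 0.113% of all tested genes were called.

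In flox/flox spheroids Bmpr2 rose in 6 of 6 lines. It measured 143, 176, 210, 243, 138 and 165 CPM with 4-OHT (lowest 138, highest 243) and 76.3, 96.1, 106, 110, 89.9 and 72.4 CPM with DMSO, with no overlap and a log2 fold change of 0.97 (SE 0.14, adjusted p = 7.37e-05). 2 of 9 members were called, 1 higher and 1 lower, with 19.1% of all tested genes called. With the line as a block 4 members and 4649 genes were called, against 2864 genes in the unblocked fit. In flox/+ spheroids it measured 114, 119, 122, 136 and 121 CPM with 4-OHT and 107, 107, 103, 126 and 130 CPM with DMSO. No member was called there with edgeR or DESeq2, none had an unadjusted p under 0.05, and 0% of all genes were called with edgeR, 15 of 15032 having an unadjusted p under 0.05. That fit leaves out the pairing by line, where deviations correlated at 0.623 to 0.839, and so could miss small changes. With the line as a block no member was called either (Bmpr2 0.11, adjusted p = 0.874), and 1 gene was called. The change in flox/flox lines exceeded that in flox/+ lines by 0.87 (SE 0.20, adjusted p = 0.031, and 0.85 with adjusted p = 0.000588 with the line as a block). With the block 3 members and 2758 genes were called. Without it Bmpr2 was the single member of 9 called for this difference, with 1.62% of all tested genes called, and the call without the block was lost when any 1 of 10 of the 22 libraries was left out. Between 4-OHT flox/flox and 4-OHT flox/+ spheroids Bmpr2 was the 1 member called, 0.56 higher (adjusted p = 0.0157, and 0.0673 with only these 2 groups in the fit), with 10.5% of all tested genes called. Between the DMSO spheroids of the 2 genotypes no member was called with edgeR or DESeq2, and Bmpr2 alone had an unadjusted edgeR p under 0.05 (0.0407). It was lower in flox/flox lines, at a mean of 91.8 against 115 CPM and a log2 fold change of -0.31. Of all genes, 0% were called with edgeR and 9 genes with DESeq2, and 1084 had an unadjusted edgeR p under 0.05.

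**Figure D2:**
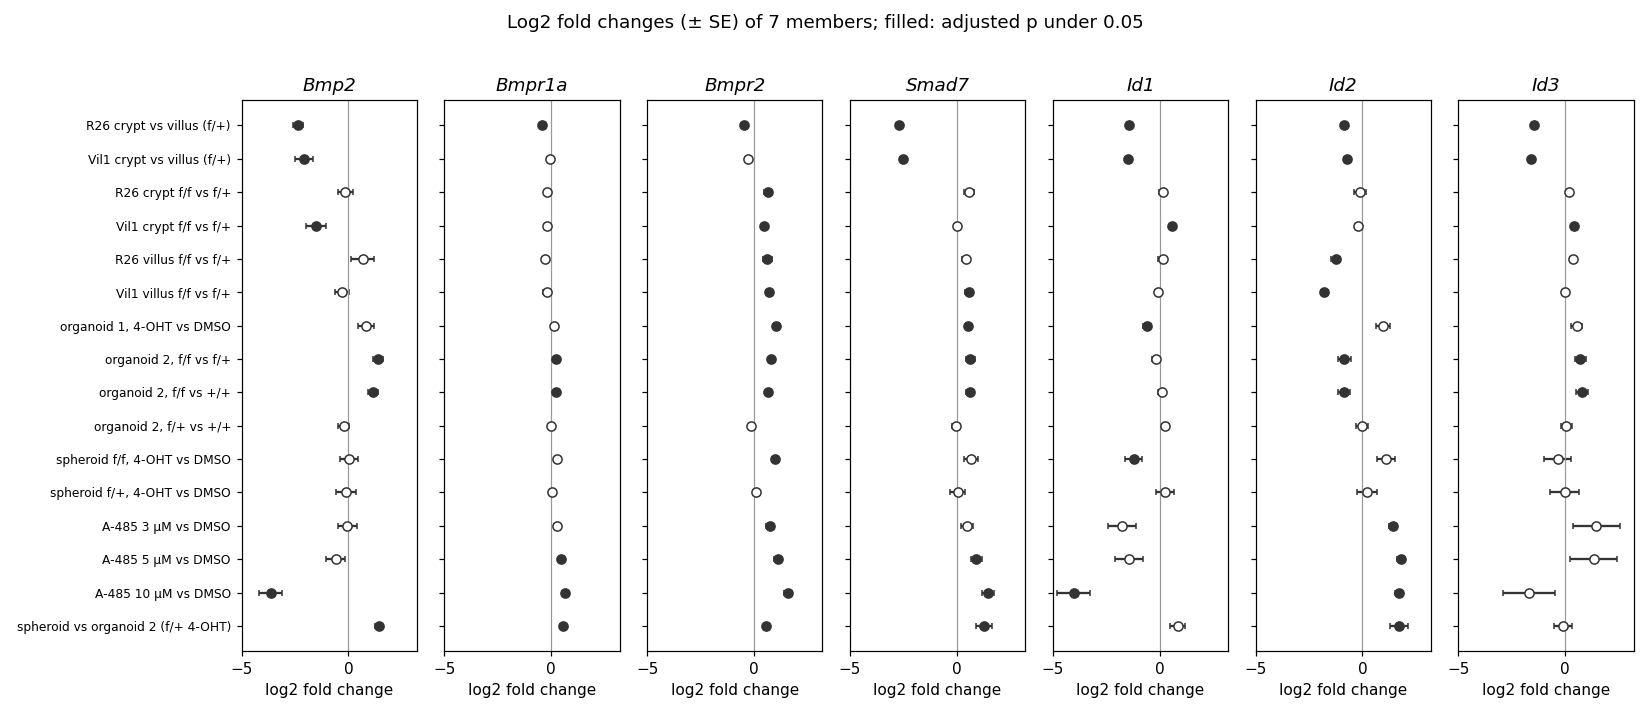
Log2 fold changes of 7 members (Bmp4 and Smad6 are not drawn) in 16 comparisons, with bars of 1 SE and filled points for an adjusted p under 0.05. Bmpr2 lies above 0 in each deletion and A-485 comparison, and Id2 lies below 0 in villi and the second organoid set and above 0 with A-485.

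A-485 raised Bmpr2 at each dose. In lines 1 to 4 it measured 91.1, 105, 91.2 and 105 CPM with DMSO, 157, 140, 120 and 242 CPM at 3 µM, 184, 195, 192 and 282 CPM at 5 µM, and 290, 270, 264 and 370 CPM at 10 µM. Every line rose at every step. The log2 fold changes against DMSO were 0.75 (SE 0.19, adjusted p = 0.0097), 1.12 (adjusted p = 9.44e-05) and 1.60 (SE 0.19, adjusted p = 9.72e-07). The 3 comparisons share the DMSO libraries, and 2, 5 and 7 of 8 members were called in them, with 19.2%, 49.6% and 62% of all tested genes called. Bmpr2 overlaps Gm38125 on the same strand, and how reads shared by both were counted is not given in the sources used here.

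Bmpr1a, the type I receptor, moved less. It measured 206, 229, 206 and 209 CPM in second-set flox/flox organoids and 168, 168, 191 and 199 CPM in flox/+, without overlap, a log2 fold change of 0.22 (adjusted p = 0.0214) and 0.21 against CreER-only (adjusted p = 0.0291). Each call was lost without any 1 of 3 of the 8 libraries. With A-485 it rose from 219, 248, 212 and 224 CPM in DMSO to 302, 282, 282 and 394 CPM at 5 µM and 362, 303, 315 and 430 CPM at 10 µM, with log2 fold changes of 0.48 (adjusted p = 0.00639) and 0.64 (adjusted p = 0.000437). In the 2 Rosa26-CreER tissue comparisons its fold changes were -0.20 (adjusted p = 0.174) and -0.30 (adjusted p = 0.125), and it was not called in any tissue comparison of genotypes or in flox/flox spheroids (0.29, adjusted p = 0.0838). It overlaps the antisense transcript Gm17110.

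Smad7, the inhibitory Smad that acts on both BMP and TGF-beta receptors, was called higher in 6 comparisons of deletion or A-485. In Vil1-CreER villi it measured 134, 107, 125, 85.3, 169 and 100 CPM in homozygotes and 76.9, 68.4, 88 and 89.9 CPM in heterozygotes. The homozygous library of replicate 4 lay within the control range, and the log2 fold change was 0.55 (SE 0.17, adjusted p = 0.0206). The call was lost without heterozygous replicate 1 (adjusted p = 0.0625) or 2 (adjusted p = 0.0753). In Rosa26-CreER villi it measured 252, 145, 150, 173 and 153 CPM against 113, 159, 101, 139 and 126 CPM, a log2 fold change of 0.41 that was not called (adjusted p = 0.0826). In Rosa26-CreER crypts the fold change was 0.56 (adjusted p = 0.116), with the Y-linked term 1.19 (adjusted p = 0.0128) and without homozygous replicate 1 0.28 (adjusted p = 0.248). Without homozygous replicate 1 the villus value was 0.24 (adjusted p = 0.174).

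In organoids Smad7 measured 14.9, 14.8 and 13.1 CPM with 4-OHT and 10.5, 8.83 and 10.6 CPM with DMSO in the first set, without overlap, a log2 fold change of 0.51 (SE 0.13, adjusted p = 0.0197). That call was lost without any 1 of 4 of the 6 libraries and with the A-485 libraries in the fit (adjusted p = 0.16). In the second set it measured 6.31, 6.6, 7.71 and 7.23 CPM in flox/flox and 5.33, 3.85, 4.19 and 4.4 CPM in flox/+, a log2 fold change of 0.64 (SE 0.19, adjusted p = 0.0109), and 0.61 against CreER-only (adjusted p = 0.0155, lost without 1 of the 8 libraries). In flox/flox spheroids it was higher in 6 of 6 lines, at 14.5, 13.8, 15.7, 11, 12.3 and 10.1 CPM against 6.4, 9.95, 9.8, 4.76, 9.52 and 8.79 CPM. The fold change of 0.65 was not called (adjusted p = 0.176), and with the line as a block it was 0.67 (adjusted p = 0.022). With A-485 Smad7 went from 4.5, 3.95, 4.08 and 3.9 CPM in DMSO to 7.8, 7.2, 7.96 and 8.14 CPM at 5 µM and 9.02, 11.8, 16.9 and 7.35 CPM at 10 µM. Its log2 fold changes were 0.92 (adjusted p = 0.00773) and 1.46 (adjusted p = 0.000111), and 0.48 at 3 µM was not called (adjusted p = 0.226).

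Smad6, the inhibitory Smad with preference for BMP signalling, was not called for deletion in any tissue or culture comparison with all libraries. In Rosa26-CreER crypts it measured 23, 5.74, 11.6 and 19 CPM in homozygotes and 8.23 to 11.5 CPM in heterozygotes, a log2 fold change of 0.60 (adjusted p = 0.221). It was 0.31 without homozygous replicate 1, not called, 0.86 and called without homozygous replicate 3 (adjusted p = 0.0259), and 1.27 with the Y-linked term (adjusted p = 0.071). In those crypts the summed endothelial markers were 3.04 to 21.5 CPM in homozygotes and 2.92 to 6.38 CPM in heterozygotes, and their part was not tested. With A-485 Smad6 had 0 reads in all 4 libraries at 5 µM and in all 4 at 10 µM, while the DMSO lines held 0.0776, 1.05, 2.2 and 1.09 CPM, 55 reads in all. Against a limit of 3 reads over the group it was at least 19.4-fold lower at 5 µM (adjusted p = 0.0192) and at least 18.9-fold lower at 10 µM (adjusted p = 0.0148). These bounds take the DMSO group mean as exact and leave out its spread over lines. For line 1, at 0.0776 CPM with DMSO, they do not hold. At 3 µM line 4 read 3.5 CPM and the other lines 0 to 0.345.

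In tissue, Id2 had the largest genotype change among the members called under every alternative tried. In Vil1-CreER villi it measured 9.09, 8.07, 10.3, 6.75, 11.1 and 7.04 CPM in homozygotes and 30.3, 26.1, 35.2 and 26.6 CPM in heterozygotes. The groups did not overlap, with a log2 fold change of -1.78 (SE 0.17, adjusted p = 3.80e-06). In Rosa26-CreER villi it measured 14.1, 11.1, 12.2, 8.65 and 18.4 CPM against 24.7, 34.1, 33.9, 26.1 and 30.9 CPM, again without overlap, a log2 fold change of -1.26 (SE 0.19, adjusted p = 0.000721). Both calls held in all alternatives tried, 16 and 18 of them. Lymphocytes also express Id2, and immune markers were lower in the same villi. The 9 marker genes summed to 85.3 to 1480 CPM in Vil1-CreER homozygotes against 2630 to 4600 in heterozygotes, and to 964 to 3290 against 3600 to 6940 in Rosa26-CreER mice, with no marker at 0 in every library of a group. Their part in the Id2 difference was not tested.

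In crypts Id2 was not called. It measured 14.6, 16.3 and 13.8 CPM in Vil1-CreER homozygotes and 14.9, 18.1, 21 and 14.9 CPM in heterozygotes, and 12.6, 17.5, 21.5 and 8.18 CPM against 12.7 to 22.2 CPM in Rosa26-CreER mice. The genotype difference in villi minus that in crypts was -1.55 in Vil1-CreER mice (SE 0.24, adjusted p = 0.000998, and -1.69 with adjusted p = 0.00292 with the animal as a block). Id2 was the single member of 8 called for this difference, with 15.5% of all tested genes called. In Rosa26-CreER mice it was -1.04 (SE 0.33, adjusted p = 0.0489), the single member called of 9, with 11.5% of all tested genes called. With the animal as a block that value was -0.97 and was not called (adjusted p = 0.198), nor was it when any 1 of 14 of the 19 libraries was left out.

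In cultures Id2 went in both directions. In the second organoid set it was lower with deletion, at 6.99, 9.56, 22.2 and 12.3 CPM in flox/flox against 16.2, 25.9, 23.6 and 25.2 CPM in flox/+ and 21.9, 22.2, 22.8 and 27 CPM in CreER-only cultures. The flox/flox culture of replicate 3 lay among the controls. The log2 fold changes were -0.84 (SE 0.29, adjusted p = 0.0361) and -0.87 (adjusted p = 0.0312), and each call was lost without any 1 of 6 of the 8 libraries. In the first organoid set Id2 was higher with 4-OHT in 3 of 3 lines, at 57.7, 41.4 and 24.6 CPM against 22.3, 25.8 and 15.4 CPM. The fold change of 0.95 was not called (adjusted p = 0.052), and with the line as a block it was 0.91 (adjusted p = 0.00471). In flox/flox spheroids it was higher in 6 of 6 lines, at 46.3, 200, 44.8, 94.6, 78.7 and 84.2 CPM against 23.1, 74.6, 29.4, 48.3, 49.1 and 30.7 CPM. That fold change was 1.10 (adjusted p = 0.0785), 0.72 without the 4-OHT library of line 2 (adjusted p = 0.255), 1.33 without its DMSO library (adjusted p = 0.0441), and 1.01 with the line as a block (adjusted p = 0.000851). In flox/+ spheroids Id2 was also higher in 5 of 5 lines, by 0.02 to 0.41 in log2(CPM + 0.5), against 0.60 to 1.44 in flox/flox lines. The flox/flox change exceeded the flox/+ change by 0.88 (adjusted p = 0.6), and by 0.80 with the block (adjusted p = 0.00571). Without the block this difference was 0.50 without flox/flox 4-OHT line 2 and 0.54 without flox/+ DMSO line 1. The difference between the 2 organoid sets, which differ in controls and in table, was not tested.

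**Figure D3:**
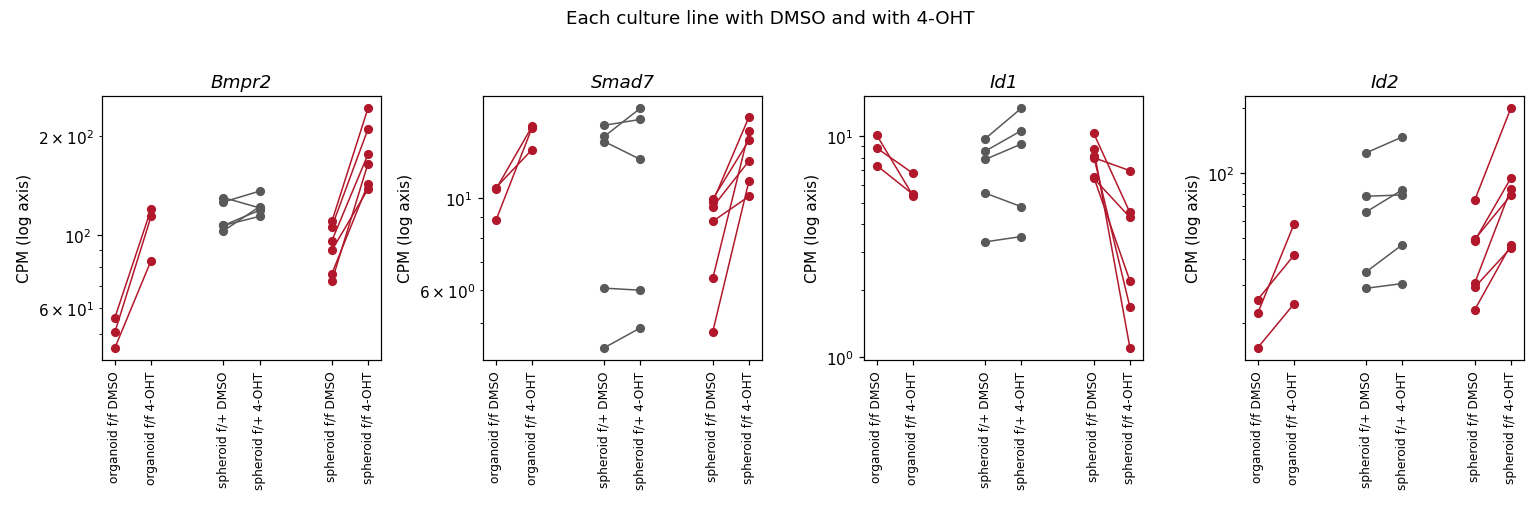
Bmpr2, Smad7, Id1 and Id2 in each culture line with DMSO and with 4-OHT, as CPM on a log axis, for flox/flox organoids of the first set, flox/+ spheroids and flox/flox spheroids; a line joins the samples of a culture line. In flox/flox cultures Bmpr2, Smad7 and Id2 were higher and Id1 was lower with 4-OHT in each line.

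With A-485 Id2 rose in all 4 lines at each dose. It measured 26.6, 16.4, 16.3 and 21.6 CPM with DMSO, 54.6, 57.6, 46.3 and 62.8 CPM at 3 µM, 55.5, 67.6, 57.4 and 99.7 CPM at 5 µM, and 67.7, 67.1, 64.8 and 67.6 CPM at 10 µM. No treated library overlapped a DMSO library. The log2 fold changes were 1.45 (SE 0.19, adjusted p = 3.39e-05), 1.79 (adjusted p = 5.16e-07) and 1.72 (adjusted p = 3.16e-07). In the same libraries the summed CPM of 8 crypt markers went from 8420 to 10300 with DMSO down to 204 to 256 at 10 µM, and what part that has in these changes was not tested.

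Id1 was lower with deletion in flox/flox spheroids and the first organoid set, and not in the second set, where its log2 fold change was -0.18 against flox/+ (adjusted p = 0.361) and 0.09 against CreER-only (adjusted p = 0.681). In flox/flox spheroids it measured 6.98, 2.21, 4.29, 1.68, 4.51 and 1.1 CPM with 4-OHT and 7.99, 6.53, 6.44, 8.1, 10.3 and 8.74 CPM with DMSO, lower in 6 of 6 lines. The log2 fold change was -1.22 (SE 0.40, adjusted p = 0.0351, and -1.44 with adjusted p = 0.0186 with the line as a block), and the call without the block was lost without any 1 of 6 of the 12 libraries. In flox/+ spheroids it was higher in 4 of 5 lines, at 10.6, 9.22, 13.4, 4.79 and 3.51 CPM against 8.56, 7.85, 9.75, 5.52 and 3.32 CPM. The difference between those changes was -1.47 (adjusted p = 0.234), and -1.60 with the block (adjusted p = 0.0184). In the first organoid set Id1 measured 6.79, 5.45 and 5.37 CPM with 4-OHT and 8.83, 7.36 and 10.1 CPM with DMSO. It was lower in 3 of 3 lines without overlap, at a log2 fold change of -0.58 (SE 0.18, adjusted p = 0.0398), a call lost without any 1 of 5 of the 6 libraries and with the A-485 libraries in the fit (adjusted p = 0.559).

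With A-485 Id1 went from 4.42, 6.85, 5.71 and 6.01 CPM in DMSO to 1.08, 2.25, 3.27 and 0.103 CPM at 3 µM, 1.58, 2.31, 2.21 and 2.42 CPM at 5 µM, and 0.218, 0.681, 0.4 and 0 CPM at 10 µM. Every treated library was below every DMSO library. The log2 fold change was -4.03 at 10 µM (SE 0.76, adjusted p = 0.000157), and -1.77 at 3 µM (adjusted p = 0.0726) and -1.43 at 5 µM (adjusted p = 0.0799) were not called; with the line as a block the 5 µM value was -1.41 (adjusted p = 0.00534). Bmp2 also fell at 10 µM, from 13.5, 16.1, 11.7 and 16.5 CPM to 2.4, 0.477, 1.53 and 0 CPM, a log2 fold change of -3.64 (SE 0.53, adjusted p = 1.02e-05). At 10 µM 4 members were called higher and 3 lower.

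**Figure D4:**
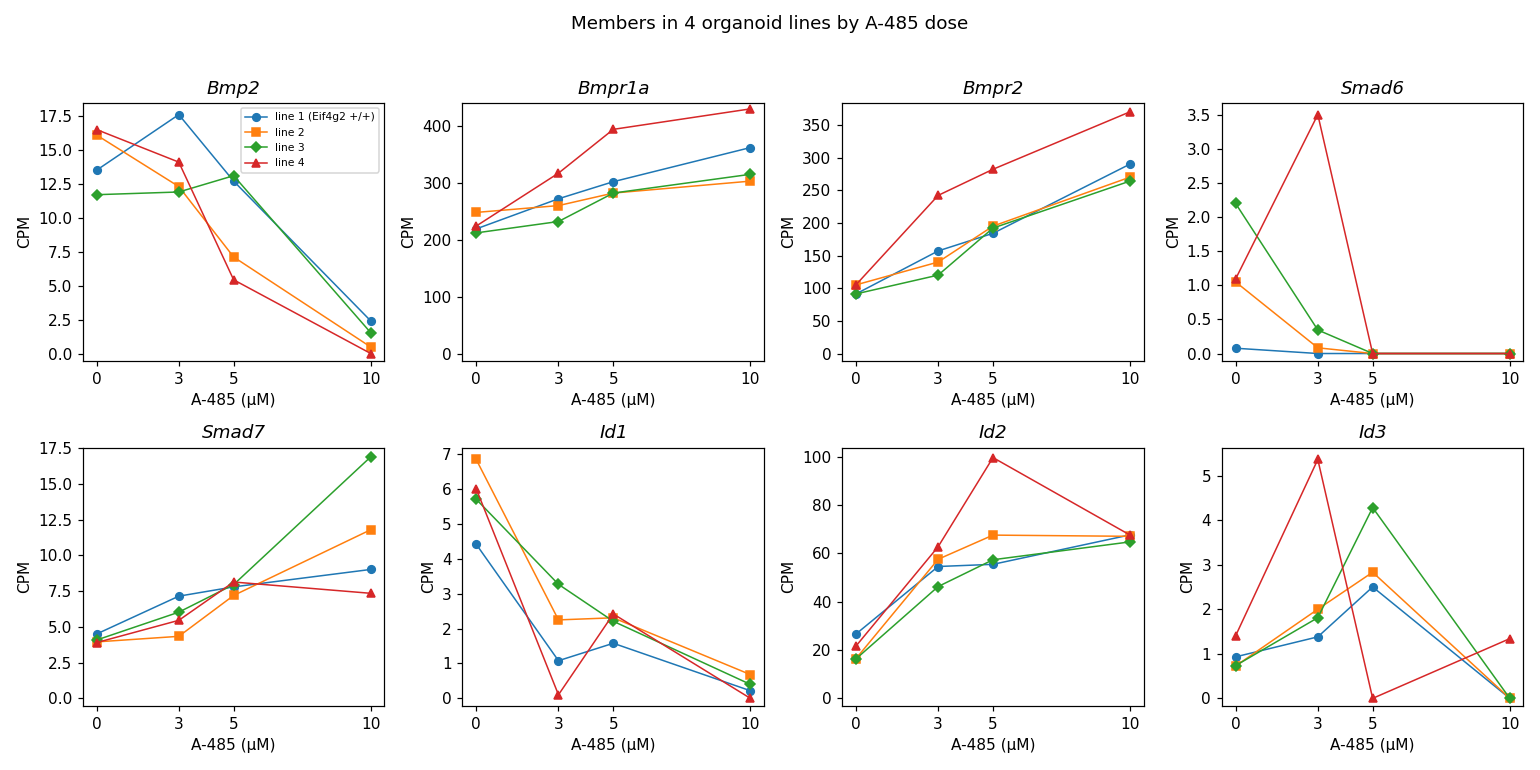
CPM of 8 members (Bmp4 is not drawn) in 4 organoid lines, on the vertical axis, against the A-485 concentration in µM on the horizontal axis (0 is DMSO); a line joins the samples of a culture line. Bmpr1a, Bmpr2, Id2 and Smad7 rise with A-485, while Id1, Bmp2 and Smad6 end near 0 at 10 µM.

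In the 4 genotype comparisons of tissue Id1 and Id3 were both called in Vil1-CreER crypts, and with the Y-linked term also in Rosa26-CreER crypts (0.64, adjusted p = 0.0369, and 0.57, adjusted p = 0.0334). In Vil1-CreER crypts Id1 measured 32.1, 34.1 and 39.6 CPM in homozygotes and 22.1, 21.1, 24.3 and 26.7 CPM in heterozygotes, a log2 fold change of 0.59 (SE 0.11, adjusted p = 0.00568). Id3 measured 34.2, 37.1 and 38.7 CPM against 28.6, 25.3, 28.4 and 30.2 CPM, a log2 fold change of 0.39 (SE 0.09, adjusted p = 0.0116), not called without homozygous replicate 3. Neither gene overlapped between the genotypes. Endothelial cells express both genes, and the sums of 7 endothelial markers were 18.2 to 20.3 CPM in homozygous and 2.03 to 27.9 CPM in heterozygous crypts, with stromal markers at 15.7 to 40.9 and 4.9 to 27.6 CPM; their part was not tested. In villi of these mice neither was called. For Id1 the villus minus crypt difference of the genotype effect was -0.62 (adjusted p = 0.0502). For Bmp2 that difference was 1.20 (adjusted p = 0.19), and 1.52 with the animal as a block (adjusted p = 0.0419). The mitochondrial share of counts was 35.7% ± 4.99 (SD, n = 3) in homozygous and 23.3% ± 6.07 (SD, n = 4) in heterozygous Vil1-CreER crypts. Its exact two-sided permutation p was 0.0857, and 0.171 adjusted over 4 comparisons. What part it has in the Bmp2, Bmpr2, Id1 and Id3 values of these crypts was not tested.

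In Rosa26-CreER villi Id3 measured 203, 194, 186, 126 and 125 CPM in homozygotes and 113, 122, 144, 131 and 115 CPM in heterozygotes, a log2 fold change of 0.36 that was not called (adjusted p = 0.0912). It was called in 5 of 18 alternatives, among them the Y-linked term (0.62, adjusted p = 0.0263) and the fit with the crypt libraries (0.42, adjusted p = 0.0395). In the second organoid set Id3 was called higher with deletion, at 4.64, 3.95, 3.41 and 2.13 CPM in flox/flox against 1.96, 1.96, 1.52 and 3.04 CPM in flox/+. The log2 fold changes were 0.71 (SE 0.27, adjusted p = 0.0382) and 0.78 against CreER-only (adjusted p = 0.0269), lost without any 1 of 6 and of 4 of the 8 libraries. In the first set it was 0.53 higher (adjusted p = 0.161), and 0.54 with the line as a block (adjusted p = 0.0437). With A-485 at 3 µM Id3 was higher in 4 of 4 lines (log2 fold change 1.46, adjusted p = 0.391). At 5 µM it was higher in 3 of 4 (1.33, adjusted p = 0.333), and neither was called. With 10 µM A-485 Id3 was at 0 in lines 1 to 3 and at 1.34 CPM in line 4, against 0.725 to 1.4 CPM with DMSO. The difference was not called (adjusted p = 0.242). Without the 10 µM library of line 4 all 3 others were at 0, against 48 reads in DMSO. The gene was then called (adjusted p = 0.00298), at least 12.7-fold lower against a limit of 3 reads. That bound takes the DMSO level as exact.

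Spheroids carried more of 7 of the 9 genes than organoids, comparing flox/+ cultures with 4-OHT of each kind, with 47.9% of all tested genes called and 25.1% called higher in spheroids. The median log2 difference of the 9 was 1.27, against -0.01 over all tested genes. Id2 measured 147, 83.5, 79, 46.4 and 30.6 CPM in spheroids against 16.2, 25.9, 23.6 and 25.2 CPM in organoids, a log2 difference of 1.71 (adjusted p = 0.00738). Bmp2 measured 23.9 to 38 CPM against 9.64 to 13.7 CPM (1.41, adjusted p = 0.000159), Smad6 1.51 to 4.28 against 0.123 to 1.51 CPM (2.11, adjusted p = 0.0156), and Smad7 4.86 to 16.5 against 3.85 to 5.33 CPM (1.27, adjusted p = 0.0189). Without organoid replicate 4 Smad6 was not called, nor was Smad7 without organoid replicate 2 or 3. Bmpr1a (0.53, adjusted p = 0.00255) and Bmpr2 (0.55, adjusted p = 0.000926) were also higher, while Id1 (0.84, adjusted p = 0.0886) and Id3 were not called. Eif4g2 was lower in these spheroids, at 527 against 754 CPM. Cell type markers also differed. Summed crypt markers were 401 to 8220 CPM in these spheroids and 8530 to 10000 CPM in the organoids, and enterocyte markers 116 to 4060 and 4010 to 8180 CPM. Stromal markers summed to 4.48 to 183 and 0.628 to 2.21 CPM. What part these have in the differences of the members was not tested.

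The rest of the pathway was read from 7 lists of 55 other genes, chosen with earlier results of these data known. Of those tested, 6 of 43 rose and 6 fell in Rosa26-CreER crypts, 5 and 3 of 33 in villi, 5 and 8 of 39 in Vil1-CreER crypts and 6 and 7 of 31 in villi, both directions occurring in each. In organoids 16 rose and 7 fell of 35 in the first set, and 16 and 7 of 33 in the second against flox/+. In flox/flox spheroids 10 of 38 rose and 1 fell, and with A-485 8, 15 and 18 of 33 rose and 0, 8 and 10 fell with rising dose. Crypts differed from villi for 18 higher and 12 lower of 38 in Rosa26-CreER and 16 and 10 of 35 in Vil1-CreER heterozygotes. Of those tested in these lists, the share called in either direction was 27.9%, 24.2%, 33.3% and 41.9% in the 4 genotype comparisons of tissue, beside 20.2%, 33.2%, 29.3% and 42.5% over all tested genes, and 78.9% and 74.3% between crypts and villi, beside 77.1% and 67.9%. In cultures it was 65.7% and 69.7% in the organoid sets, 28.9% in flox/flox spheroids, and 24.2%, 69.7% and 84.8% with A-485, beside 35.4%, 46.8%, 19.1%, 19.2%, 49.6% and 62% over all tested genes.

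Atoh8, a basic helix-loop-helix gene induced by BMP signals, was lower with deletion in Rosa26-CreER crypts (log2 fold change -2.95, SE 0.27, adjusted p = 0.00028) and in flox/flox spheroids (-4.54, SE 0.67, adjusted p = 0.000109). Its spheroid change exceeded that of flox/+ lines by -4.61 (SE 0.88, adjusted p = 0.00904). Several genes named here were also called in comparisons that are not listed. Atoh8 was called lower in homozygous Vil1-CreER crypts, with deletion in both organoid sets and with 5 and 10 µM A-485. Unlike Id1 and Id3 it was higher in crypts than in villi of Rosa26-CreER heterozygotes (5.69, adjusted p = 7.38e-07). Rgmb, a BMP co-receptor, fell with deletion in Rosa26-CreER crypts (-1.97, adjusted p = 0.000266) and by a similar amount in first-set organoids (-1.59, adjusted p = 0.000235). Nbl1, a secreted BMP antagonist, was higher in homozygous Rosa26-CreER villi (3.16, adjusted p = 5.01e-06), Vil1-CreER villi (2.00, adjusted p = 0.00461), first-set organoids (2.07, adjusted p = 0.00212) and the second set against flox/+ (1.94, adjusted p = 0.000774). Bmp3, a ligand that opposes other BMPs, was higher with deletion in villi of Rosa26-CreER (1.28, adjusted p = 0.00536) and Vil1-CreER mice (1.80, adjusted p = 0.016) and in the second organoid set against CreER-only cultures (1.52, adjusted p = 3.86e-05). In Vil1-CreER crypts Bmp3 was called lower with deletion. Its villus minus crypt difference of the genotype effect in these mice was 3.03 (SE 0.68, adjusted p = 0.00997). Bmp7 and the follistatin relative Fstl1, both higher in Vil1-CreER heterozygous crypts than villi (4.19 and 5.29), were lower with deletion in those crypts (-3.66, adjusted p = 0.00033, and -3.52, adjusted p = 0.000231). Fstl1 also fell in the second organoid set (-3.54, adjusted p = 8.58e-07).

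Tgfb1, a ligand of the neighbouring TGF-beta pathway, rose with deletion in first-set organoids (1.87, adjusted p = 0.0198), in the second set against flox/+ (1.94, adjusted p = 5.61e-07) and in flox/flox spheroids (1.17, adjusted p = 0.0158). The pseudoreceptor Bambi fell with 10 µM A-485 (-3.52, adjusted p = 4.94e-05) and in homozygous Vil1-CreER crypts (-2.36, adjusted p = 0.00973). It was also called lower with deletion in Rosa26-CreER crypts and villi, Vil1-CreER villi and both organoid sets. Bmp8a and Bmp8b rose with A-485, to 4.74 and 3.10 at 10 µM (adjusted p = 6.45e-08 and 3.39e-09). Those values are uncertain, because both genes are near-identical copies and overlap Oxct2a, Oxct2b or Ppie.

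Across the 21 group means, centred within each table, the genes most like each member among 9211 compared were Clec2h (Pearson r 0.954) and Gata5 (0.949) for Bmp2, Dennd4c (0.959) and Actr10 (0.957) for Bmpr1a, and Tmx3 (0.974) and Ralgapb (0.957) for Bmpr2. They were Oaf (0.93) and BC025446 (0.891) for Smad6, and Frmd8 (0.979) and Ugcg (0.974) for Smad7. For the Id genes they were Prr5 (0.926) and Fchsd2 (0.924) for Id1, Zfp961 (0.926) and Mxd4 (0.912) for Id2, and Sult2b1 (0.903) and Trim40 (0.902) for Id3. Among the members themselves Bmp2 and Id1 correlated at 0.813, Id1 and Id3 at 0.761, and Bmpr1a and Bmpr2 at 0.738. These are descriptions over groups that share tables, animals and culture lines.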

How the data were processed

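Read counts per gene were deposited by the authors as 4 tables of raw counts; HISAT2 2.0.5 and GRCm38 (mm10) are named in the submitters' processing notes, while the counting program and its strand setting are not given in the sources used here. The 9 members, the pathway and marker lists and the tests were chosen with earlier results of these data known. Each comparison used edgeR 4.0.16 (R 4.3.3, limma 3.58.1): TMM scaling, filterByExpr, quasi-likelihood F-tests, and p-values adjusted by Benjamini and Hochberg across every gene tested, with calls at 0.05. The SE of a log2 fold change is its size divided by the square root of F. CPM values are TMM-scaled over each table; RPKM divides by the deposited gene length. DESeq2 1.42.0, other filters, covariates and left-out libraries were tried as alternatives. The scripts (R, and Python 3.11.15) were tested on simulated data.

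Within an experiment and genotype, same-numbered organoid, A-485 and spheroid samples come from the same line. Crypts and villi are paired by animal, and both pairings rest on the library names in the labels. Deviations of paired samples from the group means correlated at 0.329 to 0.508 in the first organoid set and 0.0401 to 0.256 with A-485. In flox/flox and flox/+ spheroids they correlated at 0.325 to 0.764 and 0.623 to 0.839, and in tissue at -0.00176 to 0.297. Unpaired fits are the main ones, and blocked values stand beside results whose call they change. Spheroid lines may share animals, in which case p-values measure partly technical spread. Pathway genes were named by rule: at most 3 called genes per comparison with the largest fold change and a mean log2 CPM of at least 1, and the text describes those named in more than 1 comparison; for likeness, the 2 highest correlations. Promoter letters are from RefSeq, GRCm38.p6.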

Additional observations from a re-analysis of the deposited data

Results flagged for a closer look

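A single library stood apart from the rest of its group in 12 of 157 groups of 4 to 10 libraries tested on log2(CPM + 0.5); chance marks about 1 in 20 such groups. Bmp2 was low in the DMSO library of flox/flox spheroid line 6 (22.3 CPM). Bmpr1a was high in flox/flox organoid replicate 2 of the second set (229 CPM) and low in the 4-OHT library of flox/+ spheroid line 5 (225 CPM). Bmpr2 was high in line 4 at 5 µM A-485 (282 CPM) and low in homozygous Rosa26-CreER villus replicate 1 (40.4 CPM). Id3 was present in line 4 at 10 µM A-485 (1.34 CPM), and Smad7 was low in heterozygous Vil1-CreER crypt replicate 3 (10.6 CPM). For Bmp4 the apart libraries held few reads: 0.145 CPM in line 1 at 10 µM A-485, 0.0559 in flox/flox and 0.105 in flox/+ organoid replicate 3, 1.11 in heterozygous Rosa26-CreER villus replicate 3 and 0.125 in heterozygous Vil1-CreER villus replicate 2.

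Effects of deletion differed between settings for 2 members, by a test of the difference itself in edgeR. The Id2 effect in villi minus that in crypts was -1.04 in Rosa26-CreER mice (not called with the animal as a block) and -1.55 in Vil1-CreER mice. The Bmpr2 effect of 4-OHT in flox/flox minus flox/+ spheroids was 0.87.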

How the results depend on the processing

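Of 176 member fold changes tested, 66 were called, and 44 of these were called under every alternative. For 92 of the 176 (those with an adjusted p under 0.25 or called with a line or animal block), 1384 alternative values gave 1216 on the same side of the threshold, 123 that lost and 45 that gained a call, and 0 that changed sign. Among the other 84, none called, 152 of 1412 alternative values changed sign, in 47 fold changes. With a replicate block the members called were 0 against 1 without it in Rosa26-CreER crypts, 0 against 1 for their villus minus crypt difference and 2 against 1 for that of Vil1-CreER mice, 6 against 3 in the first organoid set, 4 against 2 in flox/flox spheroids, 0 against 1 between 4-OHT spheroids and 3 against 1 for the spheroid difference. Genes called with the block were 777 against 1904 for the Rosa26-CreER difference, 30 against 16 for flox/+ against CreER-only, 4649 against 2864 and 1 against 0 in flox/flox and flox/+ spheroids, 140 against 1577 between 4-OHT spheroids and 2758 against 243 for the spheroid difference. Samples compared across genotypes share only a number (correlations from -0.448 to 0.604), and for line- and animal-paired comparisons the block changed no other call of a member with a value; Smad6 and, at 10 µM, Id3 had no blocked value with A-485.

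With the other libraries of a table in the fit, 0 members were called in Rosa26-CreER crypts, and 3079 genes in the first organoid set (5422 without them). With only the 2 groups compared in the fit, in place of all spheroids, 0 members and 880 genes were called between 4-OHT spheroids and 1 member in flox/flox spheroids. With the Y-linked term 3 members were called in Rosa26-CreER crypts (Id1, Id3 and Smad7) and 2967 genes in villi (4504 without). With no filter beyond 1 read, 1 member was called in Rosa26-CreER villi, 0 for the Rosa26-CreER difference, 1 in flox/flox spheroids and 0 for the spheroid difference, and 1221, 60 and 123 genes for the Rosa26-CreER difference, flox/+ against CreER-only and the spheroid difference. With DESeq2's size factors 2 members were called between 4-OHT spheroids. Its Wald test called 2 there and 2 for the Vil1-CreER difference, and 2884, 156, 9 and 603 genes for the Rosa26-CreER difference, flox/+ against CreER-only, DMSO spheroids and the spheroid difference. In the second organoid set the Id2 calls were lost with no filter (adjusted p = 0.0848 and 0.0747) and with only the 2 groups compared in the fit (0.0794 and 0.0574), as was the Id3 call against flox/+ in that fit (0.0646). Id1 in flox/flox spheroids lost its call in both settings (0.0548 and 0.0563), and Bmpr2 between Rosa26-CreER crypts and villi in the fit with the homozygous libraries added (0.0507). The cause was not tested.

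Leaving out 1 library at a time, the number of members called ranged from 0 to 2 for Rosa26-CreER crypts, 1 to 3 for Rosa26-CreER villi, 0 to 1 for the Rosa26-CreER difference, 1 to 3 for the Vil1-CreER difference, 1 to 6 for the first organoid set, 3 to 5 for flox/flox against flox/+ organoids, 2 to 6 for flox/flox against CreER-only, 1 to 3 for flox/flox spheroids, 1 to 2 for 4-OHT spheroids between genotypes and 0 to 1 for the spheroid difference. Leaving out 1 library at a time, the number of genes called ranged from 1937 to 4732 for Rosa26-CreER crypts, 3223 to 5978 for Vil1-CreER crypts, 1079 to 3068 for the Rosa26-CreER difference, 1456 to 3425 for the Vil1-CreER difference, 1 to 32 for flox/+ against CreER-only and 131 to 362 for the spheroid difference.
Reads limit the low genes: Bmp4, Smad6, Id1 and Id3 in cultures rest on few reads.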
